A study of Mus musculus with 17 samples.

Results

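The 10 genes described here set where a germinal centre (GC) B cell sits, and their levels were followed in GC B cells of mouse lymph nodes. They are 6 receptors (Cxcr4, Cxcr5, S1pr1, S1pr2, Gpr183 and Ccr7), the G protein subunit Gna13 and its effector Arhgef1, and the G protein inhibitors Rgs1 and Rgs13. They were chosen by symbol for their known roles in positioning, and all 10 were found among the 21848 genes of the count tables. In the 5′ libraries (10X Genomics) each RNA molecule of a cell is counted by its unique molecular identifier (UMI). Of 17 libraries, the 4 gene expression libraries of the time course and of the sort by CDK2 activity gave the gene counts. The hashtag libraries of the same pools assigned cells to mice, and their immunoglobulin libraries served to find cells with a given receptor pairing. Mice were told apart by hashtag antibodies, and the UMIs of each gene were summed over the cells of each mouse.

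In the time course, 39 mice of a larger (25 mice) and a smaller (14 mice) experiment received B1-8hi B cells, which carry a receptor for the hapten NP, as transfers into OVA-primed CD45.1 hosts, and were immunized in the footpad with NP-OVA. In this model part of the transferred cells carry DEC-205 and the rest lack it (Ly75-/-), and treated mice received anti-DEC-OVA, an antibody to DEC-205 fused to ovalbumin, on day 7. Anti-DEC-OVA loads DEC-205+ GC B cells with antigen, so that they receive T cell help in the light zone (LZ) and go through a burst of divisions in the dark zone (DZ). The mouse list gave 5 groups: day 7 without treatment (0 h, n = 9), day 9 untreated (48 h, n = 6), day 9 treated (48 h, n = 9), day 10 untreated (72 h, n = 8) and day 10 treated (72 h, n = 7). The CDK2 sort used GC B cells with a DHB-tdTomato reporter knocked into Rosa26, with or without an H2B-GFP reporter. They came from mice all given anti-DEC-OVA and taken at 72 h. The study crossed the reporter to the B1-8hi receptor, and for imaging it seeded GCs with a minor fraction of such B cells. Pool C of the sort held cells with the reporter in the cytoplasm (CDK2hi) and pool N cells with the reporter in the nucleus (CDK2low), and 7 mice had cells in both. The gate was live GC B cells, and the study's legends describe the profiled cells of the time course as DEC-205+. The B1-8 pairing of heavy and light chain was found in 9219 of 13625 kept cells of the larger and 4372 of 10073 of the smaller experiment. In C and N it was found in 4693 of 7448 and 2728 of 4385 kept cells. The study analysed only cells with this pairing, whereas sums here are over all kept cells unless stated.

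As background, the ligands of these receptors are made outside the B cell, by stroma and other cells of the follicle. CXCR4 follows CXCL12 into the DZ and CXCR5 follows CXCL13 into the LZ and follicle, whereas GPR183 (EBI2) follows oxysterols to the outer follicle and CCR7 follows CCL19 and CCL21 to the T cell zone. S1PR1 draws cells towards sphingosine-1-phosphate in lymph and blood, whereas S1PR2 answers to the same lipid through Gα13 and ARHGEF1, a route that holds cells in the GC, and RGS1 and RGS13 speed the switching off of Gαi and Gαq and so damp chemokine responses.

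Cells kept after filtering numbered 278 to 1679 per mouse and pool, with 1984426 to 20394909 UMIs per mouse. Bcl6, Fas, Mef2b, Mybl1, Gcsam and Basp1, markers of GC B cells, summed to between 1669 and 2408 UMIs per 1e6 UMIs (CPM) in every mouse and pool. Stromal markers summed to 2.18 CPM at most. Median UMIs per cell were 10004 to 14467 in treated mice at 48 h and 4687 to 9375 in the other mice of the time course, so that values are given as CPM after TMM scaling, which sets each gene against the other genes of the same cells. The 0 h mouse M06 of the larger experiment (312 cells) stood apart, with 68.6% of cells in G0-G1, against 38.7% to 53.9% in the other 0 h mice. It had the highest Cxcr5, S1pr2, Gpr183, Arhgef1, Rgs1 and Rgs13 of its group. Its naive or memory B cell markers (named below) summed to 503 CPM, against 265 to 356 CPM in the other 0 h mice. The 0 h mouse A1 of the smaller experiment had the most plasma cell markers (Jchain, Sdc1, Prdm1, Xbp1, Irf4 and Tnfrsf17, with most of the UMIs over all mice those of Jchain), 2552 CPM against 856 to 1456 CPM. Its T cell and myeloid markers, 28.6 and 36.2 CPM, were also the highest at 0 h. Pools shared between 6 and 94 cell barcodes. Mean levels of Cxcr4, Cxcr5, S1pr1, S1pr2, Rgs1 and Arhgef1 were lower in the smaller experiment in every group. Fits over both experiments carried a term for the experiment unless stated.

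At 48 h, the receptors for the LZ and the outer follicle were lower in treated mice, and the DZ receptor was not. Cxcr5 (chr9:44423083-44473174 of GRCm39) lay between 76.0 and 113 CPM in untreated mice (median 96.9, n = 6) and between 51.4 and 81.1 CPM in treated mice (median 64.9, n = 9). The ranges overlapped across the experiments, but not inside them. Within the larger experiment they were 87.7 to 113 against 64.9 to 81.1 CPM, and within the smaller 76.0 to 84.8 against 51.4 to 54.4 CPM. Here and below, the share of all genes with ranges apart inside a single experiment was not computed. The smaller experiment had 2 or 3 mice in each group, so that ranges separate easily there. The log2 fold change of Cxcr5 was -0.56 ± 0.07 (SE; edgeR quasi-likelihood test, adjusted p = 8.8e-08).

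Gpr183 (chr14:122189592-122202610) was between 15.1 and 36.9 CPM in untreated mice at 48 h (median 24.7) and between 7.09 and 14.7 CPM in treated mice (median 10.6). Every treated mouse was below every untreated mouse, and the log2 fold change was -1.12 ± 0.19 (edgeR adjusted p = 8.2e-06). It was -1.33 in the larger experiment alone (adjusted p = 2.2e-06) and -0.73 in the smaller (adjusted p = 0.14). Markers of naive or memory B cells (6 genes, among them Cd38, Ccr6, Fcer2a, Klf2 and Zbtb32, with most of the UMIs those of Fcer2a) moved the same way. Their sum was 234 to 409.9 CPM in untreated and 96.1 to 194 CPM in treated mice at 48 h, with all 6 detected in every one of these mice. T cell markers (Cd3d, Cd3e, Cd3g, Cd4, Cd8a and Il7r), at much lower levels, summed to 6.76 to 12.8 CPM in untreated and 0.377 to 4.99 CPM in treated mice, also with no overlap. Plasma cell markers, with most of the UMIs those of Jchain, overlapped, at 774 to 1511 CPM in untreated (median 1110) and 1190 to 2001 CPM in treated mice (median 1432). The part of these lists in the Gpr183 and Cxcr5 results was not tested. In sums over cells, fewer cells that carry a transcript and fewer transcripts per cell cannot be told apart.

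Cxcr4 (chr1:128515936-128520044) ranged from 62.3 to 136 CPM in untreated mice at 48 h (median 121) and from 79.3 to 129 CPM in treated mice (median 117). Over both experiments the ranges overlapped, and the log2 fold change was 0.04 ± 0.07 (edgeR adjusted p = 0.69). The experiments went apart. The larger gave 118 to 136 CPM in untreated and 112 to 129 CPM in treated mice (-0.11, adjusted p = 0.23), and the smaller 62.3 to 68.6 and 79.3 to 83.8 CPM, with no overlap (0.31, adjusted p = 0.038). The ratio of Cxcr4 to Cxcr5 UMIs within a mouse, which no scaling between mice can change, was 0.735 to 1.55 in untreated and 1.44 to 1.86 in treated mice at 48 h. Its median was 1.12 and 1.63, respectively. In the 72 h groups it was 0.857 to 1.38 (untreated) and 0.834 to 1.11 (treated).

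Neither S1P receptor passed the test at 48 h. S1pr2 (chr9:20873657-20914139), the confining receptor, was 147 to 188 CPM in untreated and 153 to 192 CPM in treated mice (log2 fold change 0.01 ± 0.05, adjusted p = 0.84). S1pr1 (chr3:115504071-115508721), the egress receptor, was 3.15 to 9.98 and 5.56 to 11.1 CPM (0.14 ± 0.15, adjusted p = 0.46). In the smaller experiment alone (2 untreated and 3 treated mice) both were higher in each treated mouse, without passing. There S1pr2 was 147 to 150.2 and 153 to 160.1 CPM (0.05, adjusted p = 0.65) and S1pr1 3.15 to 5.04 and 5.56 to 7.78 CPM (0.61, adjusted p = 0.13), whereas the ranges of the larger overlapped for both. Ccr7 (chr11:99035022-99045911) was close to the limit of the counts, with 334 UMIs over all 39 mice and at most 3.95 CPM in any of them. Its log2 fold change of -0.87 ± 0.47 did not pass (adjusted p = 0.12).

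In the G protein arm, Gna13 (chr11:109253598-109292195), which encodes Gα13, was 176 to 202 CPM in untreated and 204 to 242 CPM in treated mice at 48 h, with no overlap (log2 fold change 0.20 ± 0.04, edgeR adjusted p = 0.00033). Arhgef1 (chr7:24601727-24626426), the effector downstream of Gα13, went the other way by a small margin. It was 148 to 204 CPM in untreated and 141 to 186 CPM in treated mice, with no overlap inside either experiment, and its log2 fold change of -0.14 ± 0.04 (adjusted p = 0.0048) was no longer called when cells were thinned to equal depth (-0.10, adjusted p = 0.096). Of 13 alternative settings, Arhgef1 lost its call in 3 and changed direction in 1. Gna13 lost its call in 1 (edgeR adjusted p = 0.0724). Neither gene was called in the smaller experiment alone.

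Of the inhibitors, Rgs13 (chr1:144014392-144053110) was lower at 48 h. It was 86.0 to 121 CPM in untreated (median 96.8) and 41.3 to 95.5 CPM in treated mice (median 73.1), with a log2 fold change of -0.50 ± 0.13 (edgeR adjusted p = 0.0014) and -0.45 and -0.68 in the larger and smaller experiment alone. Rgs1 (chr1:144118034-144124980), its neighbour 64.9 kb away, was split by experiment. In the larger experiment it was 89.7 to 126 CPM in untreated and 54.5 to 85.7 CPM in treated mice (log2 fold change -0.60, adjusted p = 0.0079), and in the smaller 16.8 to 19.4 and 22.8 to 34.8 CPM (0.61, adjusted p = 0.056). The fit over both gave -0.33 ± 0.17 (adjusted p = 0.11), and with cells thinned to equal depth -0.47 (adjusted p = 0.0187).

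**Figure D1:**
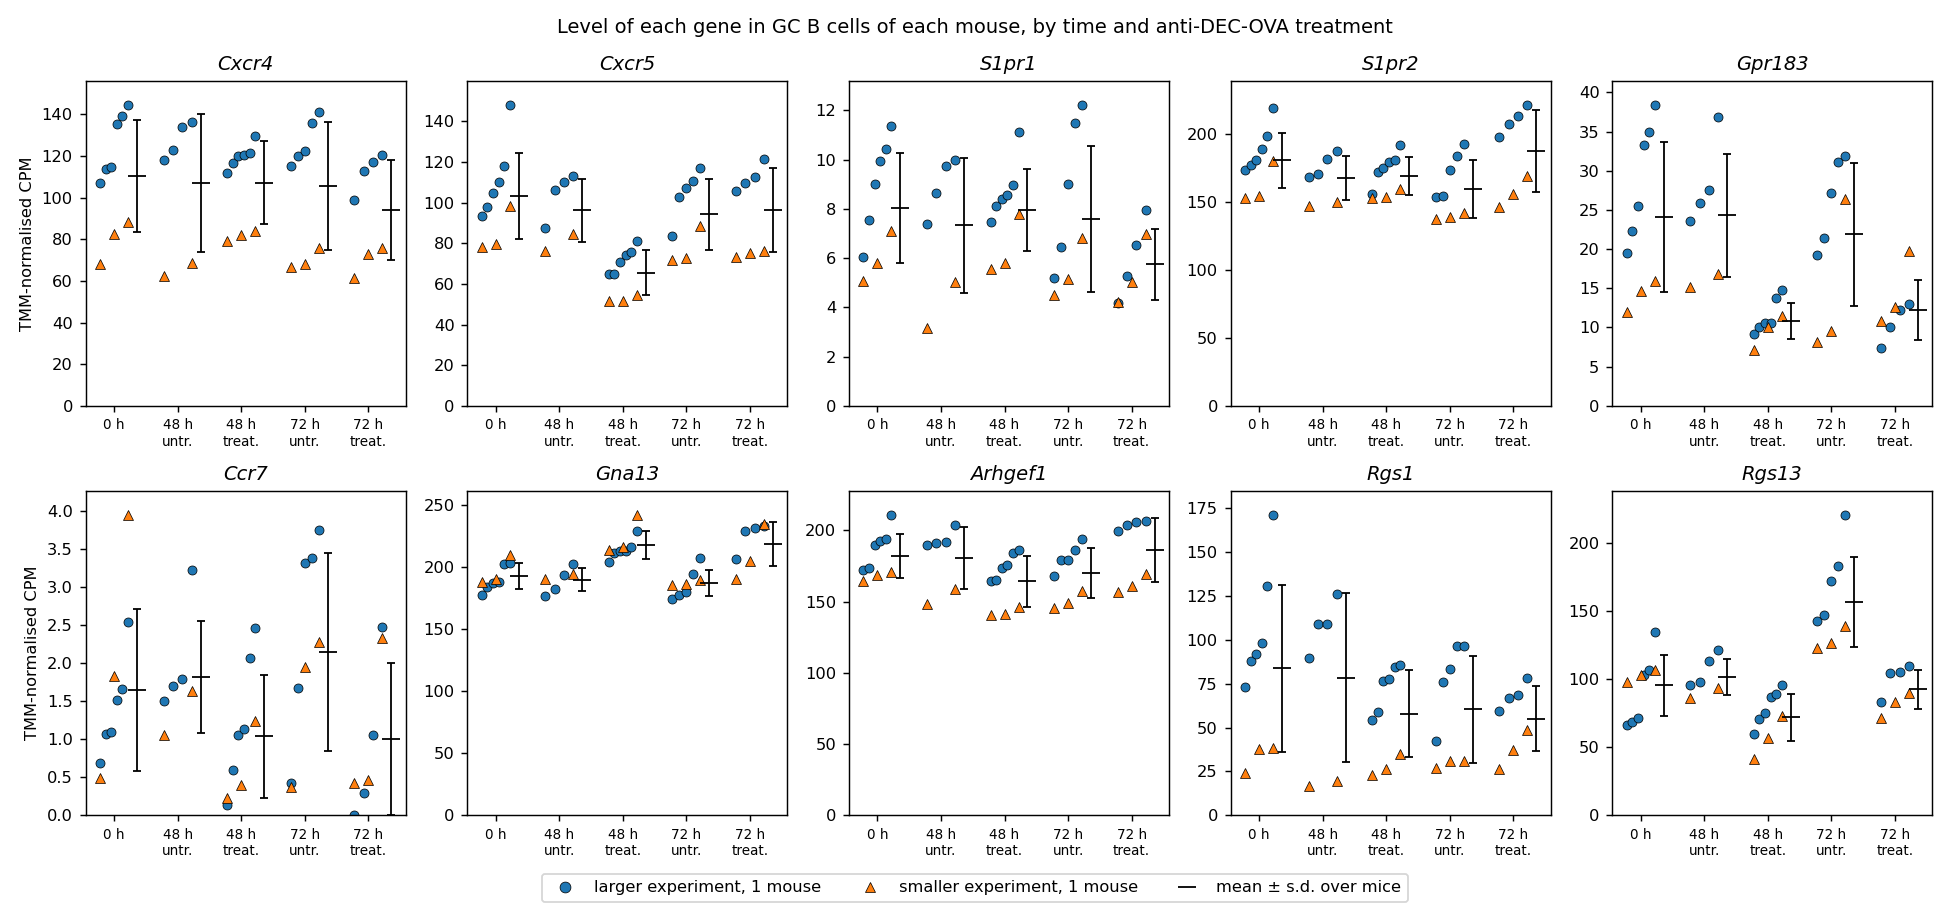
Level of each gene (vertical axis, TMM-normalised CPM) in the GC B cells of each mouse, by time and anti-DEC-OVA treatment (horizontal axis, untr. for untreated and treat. for treated). Circles are mice of the larger and triangles mice of the smaller experiment, and the bar to the right of each group is the mean ± s.d. over its mice. The Gpr183 and Gna13 points of treated and untreated mice at 48 h do not overlap, and neither do the Rgs13 points at 72 h.

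Counted together, 5 of the 10 genes passed the test at 48 h, when 47.3% of the 10270 genes tested did. Gna13 rose (24.8% of all genes did) and 4 fell (22.5%), and 2, Gpr183 and Gna13, had ranges without overlap (8.86% of all genes). The median log2 fold change was -0.23 over the 10 genes and -0.00 over all genes tested. The share of members called was near that of all genes. Over all genes, 2544 were called higher and 2311 lower, against 1889 and 3089 with plain library sizes and 9536 and 48 with UMIs per cell.

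The directions above are relative to the other genes. Counted per cell rather than per UMI, the median of all genes tested rose by 0.78 (log2) with treatment at 48 h, and relative to that shift every member kept its direction under TMM, RLE, plain library sizes and UMIs per cell, with Cxcr5 between -0.56 and -0.55, Gpr183 at -1.12 and Gna13 at 0.20. A change of scaling moves genes by nearly the same amount. Taking away the median largely removes that shift, so this agreement, here and below, is largely built in and is no separate test. In absolute terms, Gpr183 was 0.209 ± 0.0883 UMIs per cell in untreated and 0.158 ± 0.0396 in treated mice (mean ± s.d., n = 6 and 9), Cxcr5 0.811 ± 0.152 and 0.952 ± 0.192, S1pr2 1.42 ± 0.221 and 2.45 ± 0.302, and Cxcr4 0.916 ± 0.342 and 1.56 ± 0.361. Of the 4 genes that were lower per UMI, Gpr183 alone had a value below 0 per cell, which did not pass (log2 fold change -0.34, edgeR adjusted p = 0.125). Cxcr5 (0.22), Rgs13 (0.852 ± 0.133 and 1.05 ± 0.286 UMIs per cell, 0.28) and Arhgef1 (1.53 ± 0.275 and 2.39 ± 0.367, 0.65) read higher per cell, and each of them passed the test there.

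At 72 h treated mice differed from untreated mice in Rgs13, Gpr183, Gna13, Arhgef1 and S1pr2, of which S1pr2 had not been called at 48 h. Rgs13 was 123 to 221 CPM in untreated (median 145) and 71.6 to 109.7 CPM in treated mice (median 89.8), with no overlap and a log2 fold change of -0.73 ± 0.13 (edgeR adjusted p = 0.00022). Untreated mice also changed over this time. Rgs13 was 66.4 to 135 CPM at 0 h, and its rise in untreated mice from 0 h to 72 h was 0.74 ± 0.12 (edgeR adjusted p = 0.000104). It was 0.98 in the larger experiment (adjusted p = 0.00015) and 0.34 in the smaller (adjusted p = 0.41). Both comparisons use the same untreated 72 h mice.

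S1pr2 and both components downstream of it were higher in treated mice at 72 h. S1pr2 was 137 to 193 CPM in untreated (median 154) and 146 to 222 CPM in treated mice (median 198), a log2 fold change of 0.25 ± 0.05 (adjusted p = 0.0018). Gna13 was 174 to 207 and 191 to 235 CPM (0.23 ± 0.05, adjusted p = 0.000797), and Arhgef1 146 to 194 and 157 to 206 CPM (0.14 ± 0.04, adjusted p = 0.021). All 3 sets of ranges overlapped across the experiments. Inside the larger, S1pr2 (154 to 193 against 198 to 222 CPM) and Arhgef1 (168 to 194 against 199.9 to 206 CPM) did not overlap, and inside the smaller, S1pr2 (137 to 142 against 146 to 169 CPM) and Gna13 (185 to 189.9 against 190.8 to 235 CPM) did not. The larger alone gave 0.29 for S1pr2 (adjusted p = 0.0069), 0.27 for Gna13 (adjusted p = 0.0032) and 0.17 for Arhgef1 (adjusted p = 0.0508). The GC B cell markers moved the same way on plain totals, with sums of 1920 to 2091 CPM in untreated and 2125 to 2349 CPM in treated mice and no overlap. Whether these ranges are also apart after TMM scaling was not computed, and the part of these markers in the results was not tested. With cells thinned to equal depth Gna13 (0.18, adjusted p = 0.0753) and Arhgef1 (0.10, adjusted p = 0.228) were no longer called. None of the 3 passed in the smaller experiment alone, where the values were 0.16, 0.15 and 0.09 (adjusted p = 0.55, 0.62 and 0.76).

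Gpr183 was still lower at 72 h, at 7.38 to 19.7 CPM in treated (median 12.2) against 8.20 to 31.8 CPM in untreated mice (median 24.0), a log2 fold change of -0.88 ± 0.23 (edgeR adjusted p = 0.0089), or -0.75 (adjusted p = 0.0519) counted per cell. This came from the larger experiment, where the values were 7.38 to 13 against 19.3 to 31.8 CPM with no overlap. In the smaller they were 10.9 to 19.7 against 8.20 to 26.5 CPM (log2 fold change -0.20, adjusted p = 0.946), and in cells with the B1-8 receptor pairing only, over both experiments, -0.54 (adjusted p = 0.243). The sum of naive or memory B cell markers was 226 to 434 CPM in untreated and 191 to 321 CPM in treated mice, and its part was not tested. Cxcr5 was 71.8 to 117 CPM in untreated and 73.4 to 121 CPM in treated mice (0.05 ± 0.08, adjusted p = 0.78). Cxcr4 (-0.11 ± 0.07, adjusted p = 0.37), S1pr1 (-0.42 ± 0.18, adjusted p = 0.15), Ccr7 (-1.13 ± 0.54, adjusted p = 0.21) and Rgs1 (-0.04 ± 0.19, adjusted p = 0.94) did not pass.

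Altogether 5 of the 10 genes passed at 72 h, when 8.66% of all genes tested did: 3 rose (4.90% of all genes) and 2 fell (3.76%), and 1, Rgs13, had ranges without overlap (0.487%). Over all genes, 503 were called higher and 386 lower with TMM, and 513 and 106 per cell. In the smaller experiment alone no member passed, and 22 genes of all tested did.

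Whether the effect of treatment differed between the times was tested directly, as the treated minus untreated difference at 72 h minus that at 48 h. It passed for 3 of the 10 genes, all in the positive direction with TMM scaling, when 31.4% of all genes passed, 14.4% positive and 17.0% negative. They were Cxcr5 (0.61 ± 0.11 on the log2 scale, adjusted p = 4.2e-05), Arhgef1 (0.28 ± 0.06, adjusted p = 0.00029) and S1pr2 (0.23 ± 0.07, adjusted p = 0.014). Counted per cell, where the median of all genes was -0.68, these 3 read -0.08, -0.42 and -0.47, and relative to that median they were at 0.60, 0.27 and 0.22. Per cell, Arhgef1 and S1pr2 passed the test in the negative direction and Cxcr5 did not pass. Over all genes, 1481 were called positive and 1742 negative with TMM, 2086 and 1260 with plain library sizes, and 19 and 8629 per cell. For Gpr183 (0.24 ± 0.30, adjusted p = 0.58), Gna13 (0.03 ± 0.06, adjusted p = 0.77) and Rgs13 (-0.22 ± 0.18, adjusted p = 0.38) a difference between the times was not detected.

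Relative to the other genes, Cxcr5 was higher and S1pr1 lower in treated mice at 72 h than at 48 h. Cxcr5 went from 51.4 to 81.1 CPM at 48 h to 73.4 to 121 CPM at 72 h (0.60 ± 0.07, edgeR adjusted p = 1.1e-08). Inside each experiment its ranges did not overlap, at 64.9 to 81.1 and 106 to 121 CPM in the larger and 51.4 to 54.4 and 73.4 to 76.3 CPM in the smaller. Rgs13 (0.41 ± 0.13, adjusted p = 0.0078), Arhgef1 (0.21 ± 0.04, adjusted p = 2.8e-05) and S1pr2 (0.17 ± 0.05, adjusted p = 0.0051) also rose. S1pr1 fell from 5.56 to 11.1 CPM to 4.19 to 7.95 CPM, a log2 fold change of -0.49 ± 0.16 (adjusted p = 0.012). It was not called without the experiment term (-0.51, adjusted p = 0.078), with thinned cells (-0.54, adjusted p = 0.0629) or in the smaller experiment (-0.32, adjusted p = 0.419), and with thinned cells Rgs13 was not either (0.22, adjusted p = 0.146). Thus 5 of the 10 genes passed against 48.9% of all genes, 4 of them rising (24.1% of all genes) and 1 falling (24.8%), and no member had ranges without overlap across both experiments (8.83% of all genes). Marker sums moved over the same time. Naive or memory B cell markers went from 134 to 194 CPM to 244 to 321 CPM in the larger experiment and from 96.1 to 116 CPM to 191 to 261 CPM in the smaller, and GC B cell markers over both from 1744 to 2024 CPM to 2125 to 2349 CPM. The part of either list in these results was not tested. Counted per cell, where the median of all genes was -0.69, Cxcr5 (0.952 ± 0.193 UMIs per cell at 48 h and 0.852 ± 0.246 at 72 h, log2 fold change -0.11), Rgs13 (-0.29), Arhgef1 (-0.50) and S1pr2 (-0.55) read lower at 72 h, as did S1pr1 (-1.18). Of these, Cxcr5 alone did not pass the test per cell. Relative to that median the first 4 stayed positive (0.58, 0.40, 0.19 and 0.15) and S1pr1 negative (-0.49). Over all genes, 2476 were called higher and 2549 lower with TMM, 3514 and 1834 with plain library sizes, and 24 and 9447 per cell. This comparison shares its treated mice with the comparisons at 48 h and 72 h.

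Without treatment no change was detected by 48 h. From 0 h to 48 h no member passed with edgeR (0.136% of all genes did), none had an unadjusted p under 0.05, and none passed with DESeq2, with log2 fold changes between -0.19 (S1pr1) and 0.11 (Rgs13). From 0 h to 72 h Rgs13 alone passed, against 3.95% of all genes, and DESeq2 also called S1pr2 (-0.15, adjusted p = 0.046, against -0.16 and 0.055 with edgeR).

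**Figure D2:**
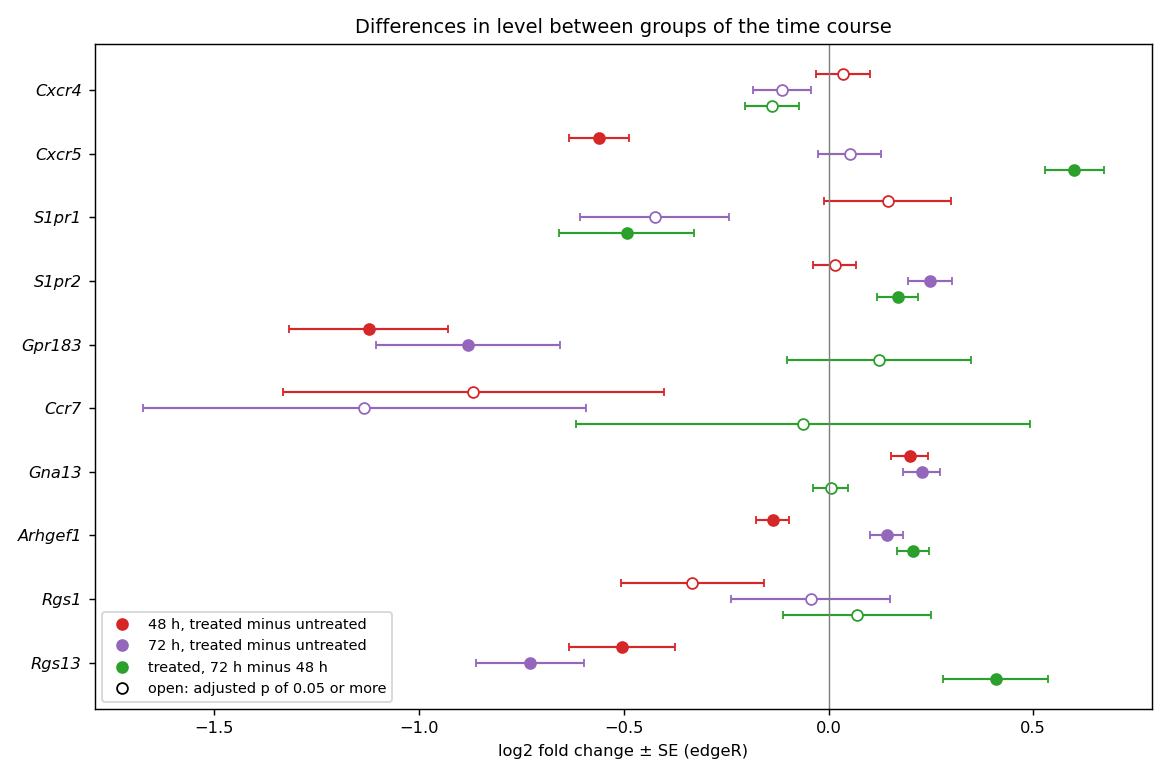
Log2 fold change ± SE (horizontal axis, edgeR) of each gene (vertical axis) in 3 comparisons of the time course, with open points for an adjusted p of 0.05 or more. Cxcr5 is lower in treated mice at 48 h (-0.56) but not at 72 h (0.05), whereas Rgs13 and Gpr183 are lower at both times.

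Regulatory sequence is shown for the 2 genes that fell with treatment at both times, Gpr183 and Rgs13, and for S1pr2 and Gna13, which were higher at 72 h. RefSeq promoter windows, 250 bases before a start site, were matched for 6 of the 10 genes and placed on GRCm39 by exact match (Cxcr5, S1pr1, Ccr7 and Rgs1 had none). They are chr14:122202606-122202855 (Gpr183, minus strand), chr1:144053111-144053360 (Rgs13, minus strand), chr9:20888090-20888339 (S1pr2, minus strand) and chr11:109253370-109253619 (Gna13, plus strand), written 5′ to 3′ along the gene. Capitals mark CACCC (KLF-type) or CAGGTG (E box) on either strand.
Gpr183: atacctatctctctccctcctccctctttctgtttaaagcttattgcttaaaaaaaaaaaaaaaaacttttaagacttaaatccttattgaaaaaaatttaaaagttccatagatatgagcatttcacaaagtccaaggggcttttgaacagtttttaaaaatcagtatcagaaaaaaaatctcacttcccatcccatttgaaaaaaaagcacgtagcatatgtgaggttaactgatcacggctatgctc
Rgs13: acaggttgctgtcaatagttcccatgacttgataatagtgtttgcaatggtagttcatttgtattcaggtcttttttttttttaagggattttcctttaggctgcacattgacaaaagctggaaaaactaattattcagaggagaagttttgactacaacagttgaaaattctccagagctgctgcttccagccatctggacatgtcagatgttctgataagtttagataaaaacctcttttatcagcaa
S1pr2: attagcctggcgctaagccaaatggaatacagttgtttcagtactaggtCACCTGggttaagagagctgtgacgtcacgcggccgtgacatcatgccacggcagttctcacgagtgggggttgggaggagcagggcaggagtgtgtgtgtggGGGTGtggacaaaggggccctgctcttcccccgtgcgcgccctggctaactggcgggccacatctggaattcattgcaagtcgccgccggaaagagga
Gna13: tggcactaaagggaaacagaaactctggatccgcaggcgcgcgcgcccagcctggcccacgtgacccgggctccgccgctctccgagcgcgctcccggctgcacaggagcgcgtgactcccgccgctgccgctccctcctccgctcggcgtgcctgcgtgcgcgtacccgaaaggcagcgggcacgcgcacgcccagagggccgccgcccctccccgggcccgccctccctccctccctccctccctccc

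The S1pr2 window held 1 CAGGTG, on the opposite strand, and 1 CACCC, also on the opposite strand, with no overlap between them. The windows of Gpr183, Rgs13 and Gna13 held neither, and none of the 6 genes' windows held TGTTTAC (forkhead). Of 32851 windows of all genes, 52% held CACCC, 17.2% CAGGTG and 3.17% TGTTTAC, on either strand. The windows of Gpr183 (32% G or C) and Rgs13 (36%) were below the lower quartile of all windows (45.2%, median 52.4%), whereas those of S1pr2 (59.2%), Cxcr4 (61.2%), Arhgef1 (62.4% and 70.8% at 2 start sites) and Gna13 (76%) were above the median.

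Cells of the same mouse differed in most of the group by cell cycle phase and by an LZ score, the mean of Cd83, Cd86, Cd40, Nfkbia, Bcl2a1b, Egr1, Il4i1, Slamf1, Traf1, Relb, Icam1 and Cd52. These are descriptions with no test. For phase and LZ score alike, the share of all genes that differ in as many mice was not computed. Whether such differences are particular to these genes therefore cannot be told. In G2-M cells, Cxcr5, Gpr183, Rgs1 and S1pr2 were lower than in G0-G1 cells in 39 of 39 mice, with median log2 differences of -1.06, -2.20, -0.93 and -0.36, respectively. Gna13 was higher in 33 mice (0.22) and Cxcr4 in 26 (0.10). S1pr1 was lower in S than in G0-G1 cells in 36 of 39 mice (median -1.13) but was not shifted in G2-M cells (-0.04).

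Along the LZ score, Cxcr4 was lower in the cells of the upper than of the lower tercile in 39 of 39 mice (median log2 difference -0.79) and S1pr1 in 38 (-0.99), as was Gna13 (-0.24). Cxcr5 (0.98), Gpr183 (1.89) and Rgs13 (0.44) were higher in all 39, and Rgs1 in 36 (0.66). S1pr2 differed little (0.10). Within G0-G1 cells alone the pattern held for Cxcr4 (lower in 39 mice, -1.07) and Cxcr5 (higher in 37, 0.49), and Gpr183 was higher in 35 (1.15).

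**Figure D3:**
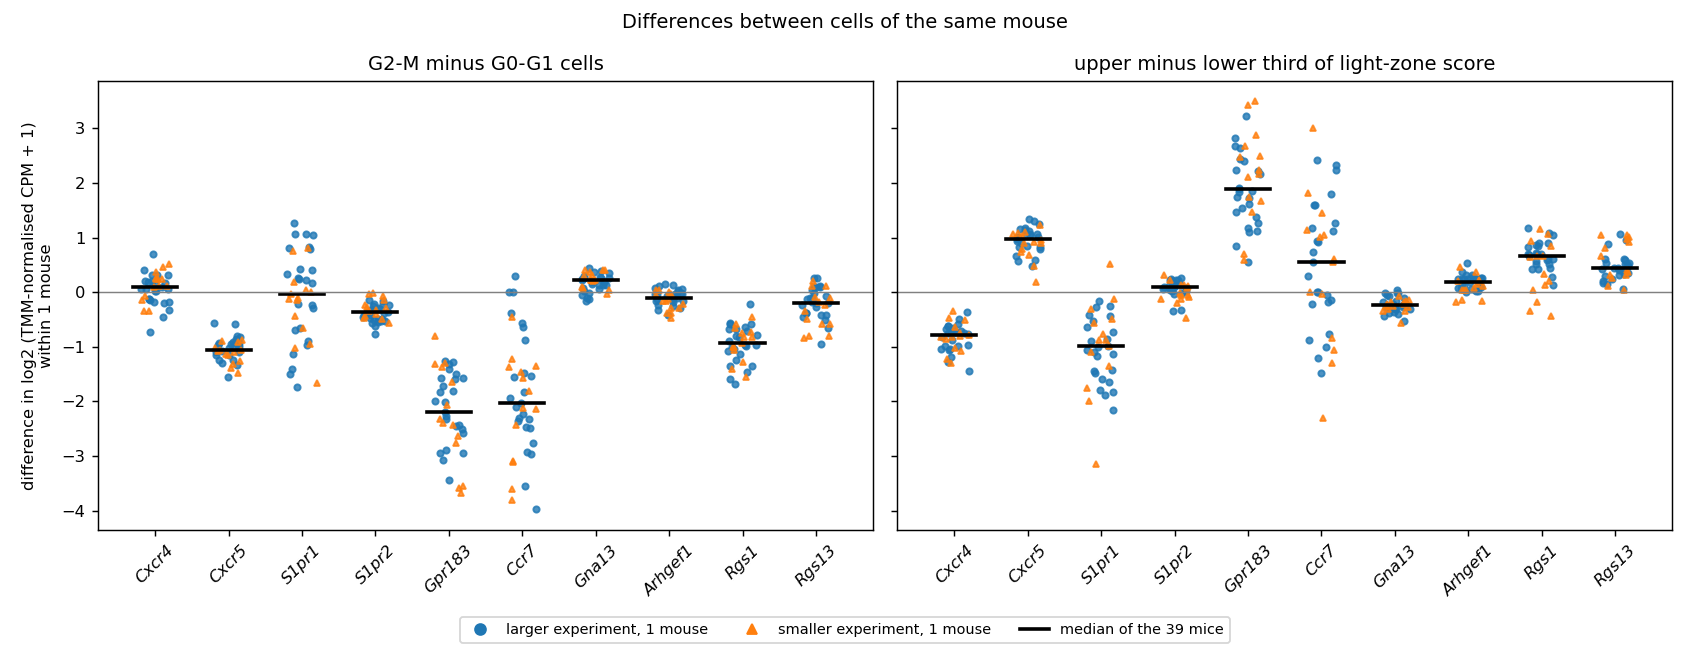
Differences within 1 mouse in log2 (TMM-normalised CPM + 1) (vertical axis) for each gene (horizontal axis), between G2-M and G0-G1 cells (left) and between the upper and lower tercile of cells by LZ score (right). Each point is 1 of 39 mice and each black line the median: Cxcr5 and Gpr183 lie below 0 in every mouse on the left and above 0 in every mouse on the right, and Cxcr4 lies below 0 in every mouse on the right.

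Treated mice at 48 h had 17.8% to 24.4% of cells in G0-G1, against 47.1% to 56.9% in untreated mice, so the 48 h comparison was repeated within phases. The upper tercile of the LZ score held 16.4% to 22.3% of the cells of treated mice and 38.2% to 43.3% of those of untreated mice. No comparison was made within terciles. The part of this share in the Cxcr5 and Gpr183 values and in the Cxcr4 to Cxcr5 ratio was not tested. The Gpr183 difference was not detected in G0-G1 cells, where its level was 48 ± 19.8 CPM in untreated and 44.0 ± 15.6 CPM in treated mice (mean ± s.d., n = 6 and 9, log2 fold change -0.09 ± 0.23, edgeR adjusted p = 0.87). It was present in S cells (14.8 ± 3.69 and 8.80 ± 2.04 CPM, -0.76 ± 0.23, adjusted p = 0.0202) and in G2-M cells (11.7 ± 3.78 and 5.90 ± 1.67 CPM, -0.94 ± 0.26, adjusted p = 0.0088). Cxcr5 was lower in G0-G1 cells (150.4 ± 15.3 and 116 ± 16.8 CPM, -0.40 ± 0.08, adjusted p = 0.0011) and G2-M cells (-0.29 ± 0.09, adjusted p = 0.016), and missed the threshold in S cells (-0.24 ± 0.10, adjusted p = 0.096).

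Rgs13 was lower in S (-0.45 ± 0.14, adjusted p = 0.031) and G2-M cells (-0.67 ± 0.13, adjusted p = 0.00022), and its value in G0-G1 cells was -0.11 ± 0.16 (adjusted p = 0.74). Arhgef1 passed in G0-G1 cells alone (-0.18 ± 0.05, adjusted p = 0.024), and Gna13 in G2-M cells alone (0.19 ± 0.05, adjusted p = 0.0075). Whether effects differed between phases was not tested. S1pr1 had its largest value in G0-G1 cells (0.69 ± 0.29, adjusted p = 0.13). In all, 2 of 10 genes passed in G0-G1 cells (9.08% of all genes), 2 of 9 in S cells (11.1%) and 4 of 9 in G2-M cells (17.4%), Ccr7 being too low to test in the last 2. With cells thinned to equal depth, 1, 2 and 1 passed. Cxcr5 stayed called in G0-G1 cells (-0.34, adjusted p = 0.0402), Gpr183 in S cells (-1.08, adjusted p = 0.012) and Rgs13 in G2-M cells (-0.72, adjusted p = 1.2e-05), and Cxcr5 gained a call in S cells (-0.46, adjusted p = 0.0108). The calls lost were those of Arhgef1 in G0-G1 cells (-0.15, adjusted p = 0.297), Rgs13 in S cells (-0.35, adjusted p = 0.139), and Cxcr5 (-0.14, adjusted p = 0.551) and Gna13 (0.17, adjusted p = 0.194) in G2-M cells, where Gpr183 was too low to test.

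The sort by CDK2 activity compares CDK2hi (C) with CDK2low (N) cells of the same treated mice at 72 h, and the libraries of C and N are also the groups, so that library and group cannot be told apart. Cells in G0-G1 made up 12.8% to 19.4% of C and 52.7% to 63.4% of N. The upper tercile of the LZ score held 15.9% to 26.4% of the cells of C and 47.0% to 59.8% of those of N. The study compared cells with a DZ expression profile, whereas no zone filter was used here. The part of the LZ share in the values below was not tested. Cxcr5 was 116 to 140.4 CPM in N (median 134) and 61.9 to 78.8 CPM in C (median 75.6), lower in C in 7 of 7 mice, with a log2 fold change of -0.89 ± 0.04 (edgeR with the mouse as block, adjusted p = 5.96e-16). Gpr183 was 11.1 to 40.6 CPM in N (median 15.7) and 5.11 to 8.66 CPM in C (median 7.88), lower in C in 7 of 7 mice (-1.25 ± 0.12, adjusted p = 1.2e-09).

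Mouse M6 stood apart in N. Its Gpr183 (40.6 CPM), S1pr1 (14.5 CPM against 3.12 to 5.54 in the other N mice) and Ccr7 (7.64 CPM against 0.128 to 1.3) were the highest. Its summed T cell markers were 59.1 CPM, against 0.364 to 4.31 in the other N mice, its myeloid markers 29.4 CPM, against 8.0 to 10.6, and its naive or memory B cell markers 494 CPM, against 325 to 455. Without M6, Gpr183 was -1.09 (adjusted p = 9.6e-10), Ccr7 lost its call (from -1.16 ± 0.47, adjusted p = 0.0301, to -0.38, adjusted p = 0.44), and S1pr1 gained one, being higher in C (from 0.14 ± 0.14, adjusted p = 0.36, to 0.33, adjusted p = 0.018). The naive or memory B cell list summed to 97.8 to 175 CPM in C and 325 to 494 CPM in N, and the myeloid list to 4.23 to 6.98 CPM in C and 8.0 to 29.4 CPM in N, both with no overlap on plain totals. TMM factors were 0.919 to 0.943 in C and 1.05 to 1.11 in N. Gaps between these sums would thus be narrower after TMM scaling, where overlap was not computed. T cell markers were 0.176 to 1.74 CPM in C. The part of these lists in the Gpr183 and Cxcr5 values was not tested.

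Cxcr4 did not differ between C (106 to 119 CPM) and N (102 to 133 CPM), at -0.01 ± 0.04 (adjusted p = 0.86), and the ratio of Cxcr4 to Cxcr5 UMIs was 1.41 to 1.91 in C and 0.768 to 0.962 in N. S1pr2 was lower in C in 7 of 7 mice (174 to 201 against 192 to 253 CPM, -0.26 ± 0.03, adjusted p = 7.2e-08), as were Arhgef1 (237 to 271 against 270.0 to 295 CPM, -0.13 ± 0.03, adjusted p = 0.00027), Rgs13 (69.4 to 93.1 against 78.7 to 128 CPM, -0.26 ± 0.04, adjusted p = 1.32e-06) and Rgs1 (11.7 to 24.5 against 19.4 to 49.6 CPM, -0.83 ± 0.07, adjusted p = 2.5e-10). Gna13 was higher in C in 7 of 7 mice, at 223 to 233 against 191 to 214 CPM (0.18 ± 0.03, adjusted p = 1.58e-06).

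These values depend on the scaling. With plain library sizes the median of all genes was -0.23 (log2) and with UMIs per cell -0.52, against -0.03 with TMM. Gna13 then read -0.02 and -0.31 and Cxcr4 -0.21 and -0.50, and relative to the median of all genes under each scaling Gna13 was at 0.21 to 0.22 and Cxcr4 at 0.02. In C against N, 8 of the 10 genes passed when 73.3% of all genes did. Over all genes, 3768 were called higher and 4002 lower in C with TMM, 2459 and 6008 with plain library sizes, and 1164 and 8160 per cell. Gna13 was higher (35.6% of all genes) and 7 lower (37.8%), and 3, Cxcr5, Gpr183 and Gna13, had ranges without overlap (38.4%).

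**Figure D4:**
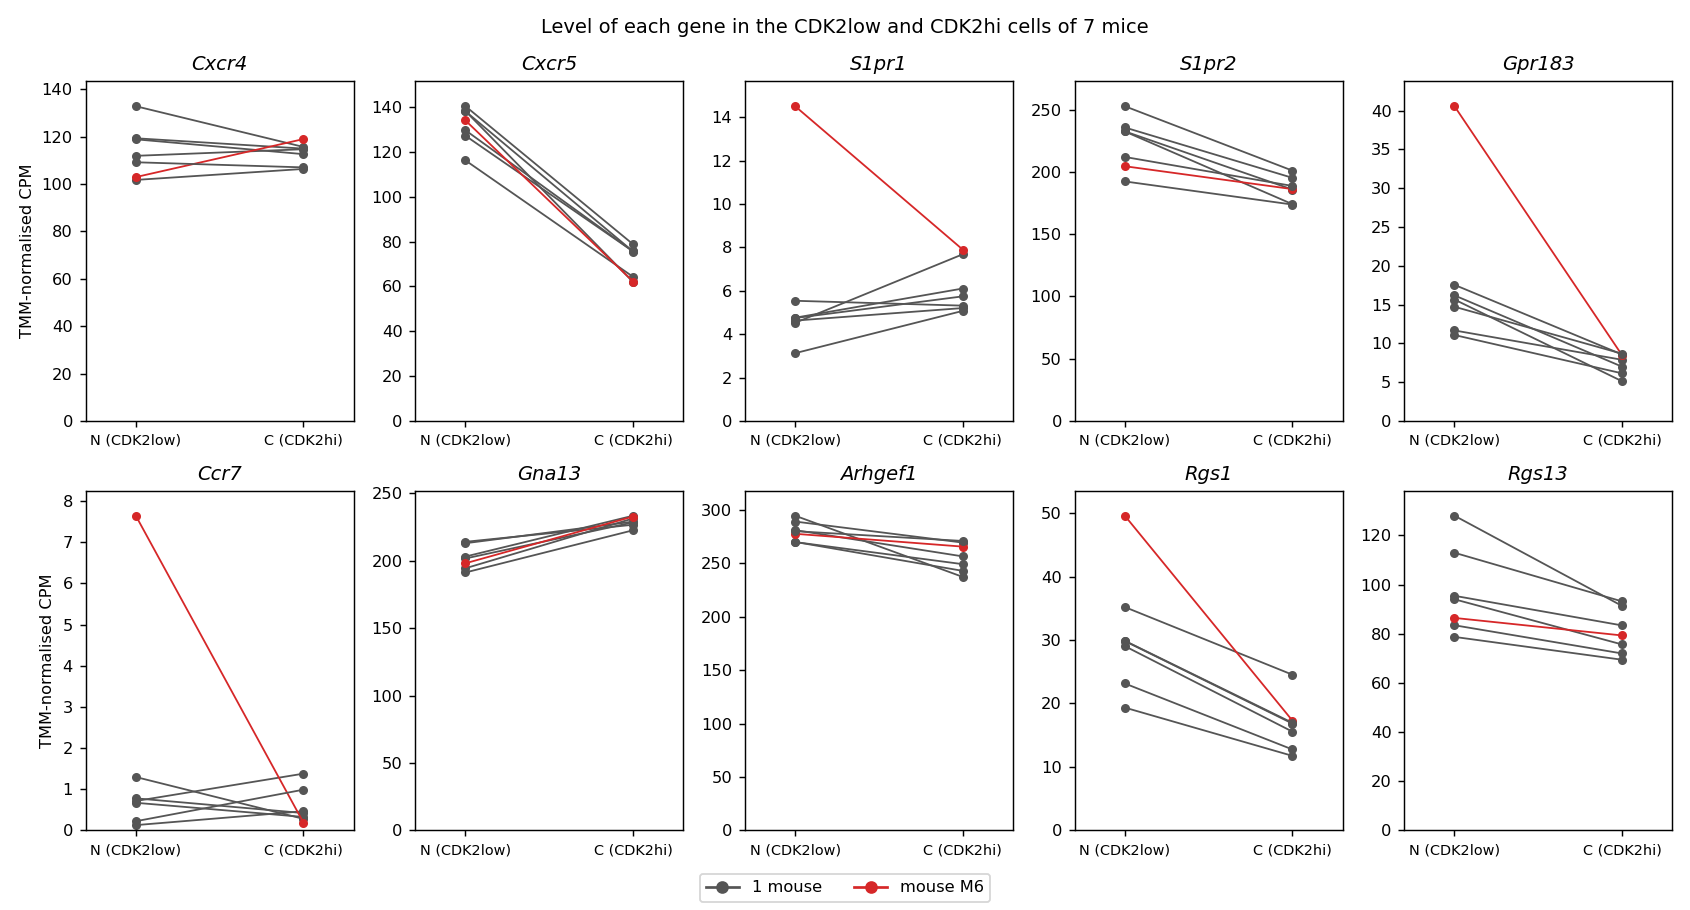
Level of each gene (vertical axis, TMM-normalised CPM) in CDK2low (N) and CDK2hi (C) cells, with 1 line for each of 7 mice and mouse M6 in red. Cxcr5, Gpr183, S1pr2, Arhgef1, Rgs1 and Rgs13 fall from N to C in every mouse and Gna13 rises in every mouse, whereas the S1pr1 line of M6 falls from 14.5 CPM and 5 of the other 6 rise.

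A wider list of 81 genes of chemoattractant signalling placed these changes. At 48 h, 63 were tested, and 29 were lower and 8 higher in treated mice, when 22.5% of all genes tested were lower and 24.8% higher. Within phases the list gave fewer calls, with 5 lower and 4 higher of 59 in G0-G1 cells, 8 and 3 of 55 in S cells and 14 and 1 of 56 in G2-M cells, when 9.08%, 11.1% and 17.4% of all genes were called in either direction. In the same order of phases, 4.65%, 5.74% and 8.92% of all genes were lower and 4.43%, 5.35% and 8.45% higher. Of 12 other chemoattractant receptors tested, 7 were lower and none higher: S1pr3, a further S1P receptor (-0.80 ± 0.10), Ptger4, a prostaglandin E2 receptor (-0.78 ± 0.21), and Cnr2, a cannabinoid receptor (-0.64 ± 0.09) fell most. Within phases, none of 11 was lower and Ccr6 was higher in G0-G1 cells, S1pr3 alone of 7 was lower in S cells, and S1pr3, S1pr4 and Cnr2 of 8 were lower in G2-M cells. All 5 integrins tested were lower, led by Itgb7 (-0.83 ± 0.14), Itga4 (-0.31 ± 0.09) and Itgal (-0.29 ± 0.07). None of them was called in G0-G1 or G2-M cells, where Itgb7 was tested in the former only, and Itgb1 and Itgb2 were lower in S cells (both -0.24, adjusted p = 0.019 and 0.014). Both receptor regulators fell, Klf2, a transcription factor for S1pr1 (-0.83 ± 0.20), and Cd69, which pulls S1PR1 from the surface (-0.51 ± 0.11). Both were lower in G2-M cells (-0.81 and -0.38, adjusted p = 0.019 and 0.010), and neither was called in S cells (-0.38 and -0.25, adjusted p = 0.53 and 0.22) or G0-G1 cells (0.36 and -0.23, adjusted p = 0.35 and 0.31).

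Inside the cell the list was mixed. Of 9 genes of the Rac and Dock arm, which drives migration, 6 were lower at 48 h (22.5% of all genes), led by Dock10 (-0.78 ± 0.07), Dock2 (-0.33 ± 0.05) and Dock8 (-0.20 ± 0.05), and 2 higher (24.8%), Rac1 (0.18 ± 0.04) and Cdc42 (0.12 ± 0.04). Within phases, 2 of the 9 were lower in G0-G1, 3 in S and 4 in G2-M cells, and 1 was higher, in S cells. At 72 h 4 were higher in treated mice (4.90% of all genes) and none lower. In treated mice from 48 h to 72 h, 7 rose (24.1%) and 1 fell (24.8%). Of 11 G protein subunits, Gnaq (-0.48 ± 0.10) and Gng2 (-0.39 ± 0.07) were lower and Gng5 (0.21 ± 0.05), Gnas (0.12 ± 0.03) and Gnb1 (0.11 ± 0.03) higher.

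Among 7 other RGS genes tested, Rgs18 (-3.82 ± 0.36, from 458 UMIs in all), Rgs2 (-0.79 ± 0.09) and Rgs14 (-0.54 ± 0.09) were lower and Rgs3 (0.57 ± 0.19) and Rgs10 (0.30 ± 0.06) higher. Of 5 receptor kinases and arrestins only Arrb2 passed (0.33 ± 0.06), and of 3 ligand-handling genes only Sgpl1, which degrades S1P (-0.34 ± 0.08). The 4 stromal ligands were too low to test. At 72 h, 12 of the 63 were higher and 4 lower (4.90% and 3.76% of all genes), among them 5 of the 11 G protein subunits higher and none lower. Between C and N, 15 of 64 were higher and 39 lower (35.6% and 37.8% of all genes), with 11 of 12 other receptors lower in C.

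Genes with the most similar pattern over the 39 mice were listed for each member by Pearson's r of log2 CPM with the mean of each experiment removed. This is a description: the mice share groups, libraries and depth. Cxcr5 was closest to Mif4gd (0.952), Rnase6 (0.948) and Cd74 (0.944), Arhgef1 to Tut7 (0.907), Sft2d1 (0.903) and Lrrfip1 (0.901), and S1pr2 to Plcg2 (0.840), Crip1 (0.834) and Tmem234 (0.820). Rgs13 was closest to Glul (0.831), Arhgap6 (0.824) and Mdfic (0.824), Gpr183 to Anxa6 (0.787), Klf2 (0.787) and Capg (0.762), and Gna13, among the genes reported, to Mbd2 (0.748) and Mtmr14 (0.747). For Rgs1 (Gem 0.642, Ppp1r15a 0.641, Cd69 0.633), Cxcr4 (Degs1 0.630, S100a11 0.616, N4bp3 0.604), Ccr7 (Mndal 0.566, Ifi203 0.565, Capg 0.560) and S1pr1 (Nap1l4 0.544, Ciao2b 0.519, Atxn1 0.514) no gene came closer than these.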

How the data were processed

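The authors deposited UMI counts per gene and cell, made with CellRanger 8.0.1 (file headers and methods) on mm39 and not normalized, and a list of mice with their hashtags and conditions. Per the labels, Cell Ranger 6.0.1 and Seurat 5.1.0 are also among the processing tools. Contig tables served only to pick cells with the B1-8 pairing, and hashtag counts to assign cells to mice. The remaining libraries, those of a first experiment, were not used here.

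Barcodes were assigned to mice with HTODemux (Seurat 5.3.0, quantile 0.99) over hashtags with at least 0.1% of hashtag UMIs, and cells whose set of positive hashtags was not that of a mouse on the list were left out. Mice of the time course carry 2 hashtags each, so that a doublet with a missed hashtag can pass as a mouse, and no further doublet caller was run. A cell was kept if it had 200 or more genes and if mitochondrial UMIs were below 10%: 13625, 10073, 7448 and 4385 of 16424, 18233, 9358 and 5206 barcodes in the larger, smaller, C and N pools, the mitochondrial limit taking 3114 in the smaller. UMIs were summed per mouse, the replicate, and tested with edgeR 4.0.16 (filterByExpr, TMM, quasi-likelihood, adjusted p under 0.05 by Benjamini-Hochberg over all genes) with a term for the experiment or, for C against N, the mouse as block. CPM of single genes are UMIs per 1e6 UMIs on TMM-scaled totals, and marker sums are UMIs per 1e6 UMIs on plain totals. Phases came from CellCycleScoring (43 S and 54 G2-M genes), in mice with at least 20 cells of the phase. The SE of an edgeR log2 fold change was derived as its absolute value divided by the square root of the F statistic. Within mice, log2 differences used an offset of 1 CPM. Similar genes had an average log2 CPM above 4, leaving out heavy-chain locus genes. Gene coordinates are GENCODE on GRCm39, and promoter sequences are RefSeq (GRCm38.p6 table). Alternatives were DESeq2 1.42.0, RLE size factors, UMIs per cell, no filters, B1-8 cells only, cells thinned to 3970, 2280 or 5260 UMIs, single experiments, no experiment term, only the groups compared, no block and leaving out each mouse of the sort. Plain library sizes and leaving out the 0 h mouse M06 were chosen after seeing the data. Genes named beyond the 10 were the 3 largest rises and falls at 48 h per list group and the 3 most similar genes. Members and lists were chosen with earlier results of these data known. The study reports that littermates served as a control for litter, cage and age, and the litter of each mouse is not given. The groups came from the authors' mouse list, and mice M8 and M9 of the sort had almost no hashtag UMIs. A few genes and 1 gene group of the lists are not reported here.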

Additional observations from a re-analysis of the deposited data

Results flagged for a closer look

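In the CDK2low pool, mouse M6 was far above the other 6 mice, at 14.5 CPM for S1pr1, 40.6 CPM for Gpr183 and 7.64 CPM for Ccr7. The T cell, myeloid and naive or memory B cell markers of this mouse were also the highest of the pool, and their part was not tested. Among untreated mice at 48 h, mouse M10 was above the other 5 for Ccr7, at 3.23 CPM. These 4 came from 70 groups of mice examined for a value far from the rest (Dixon's test), of which chance gives about 1 in 20.

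The effect of anti-DEC-OVA differed between 72 h and 48 h by the test of the difference (edgeR, log2 scale) for Cxcr5 (0.61), Arhgef1 (0.28) and S1pr2 (0.23).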

How the results depend on the processing

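Of the values of single members under the alternatives, 885 kept their side of the threshold, 18 changed direction with a call in at least 1 of the fits compared, 40 lost and 21 gained a call. Values not called in either fit also changed sign and stand among the 885. Counted per cell, when the median of all genes moved, values with a call reversed for Arhgef1 (48 h 0.648, treated 72 h minus 48 h -0.503, difference of effects -0.416), Cxcr5 (0.225, -0.114 and -0.083), Rgs1 (48 h 0.495, treated 72 h minus 48 h -0.572), Rgs13 (0.279 and -0.292), Gna13 (treated 72 h minus 48 h -0.705, difference of effects -0.668, C minus N -0.308, and -0.0168 with plain library sizes), S1pr2 (-0.545 and -0.466), Gpr183 (treated 72 h minus 48 h -0.556) and S1pr1 (C minus N -0.347). Without a call in either fit, Gpr183 (-0.408) and Rgs1 (-0.370) turned in the difference of effects and Rgs1 at 72 h (0.125). Relative to the median of all genes, directions held under every scaling in the comparisons at 48 h and 72 h and in C minus N except for Rgs1 at 72 h (-0.04 to 0.03). Taking away the median largely removes a shift common to all genes, so this agreement is largely built in. Plain library sizes moved the share of calls that were higher from 52.4% to 37.9% at 48 h, 49.3% to 65.7% for treated 72 h minus 48 h, 46.0% to 62.3% for the difference of effects and 48.5% to 29.0% in C minus N. Counted per cell these shares were 99.5%, 0.253%, 0.22% and 12.5%, and at 72 h 82.9% against 56.6%.

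Members called numbered 5 at 48 h (8 per cell, 3 in the smaller experiment), 5 at 72 h (2 without the experiment term, 0 in the smaller experiment, 3 thinned), 5 for treated 72 h minus 48 h (8 per cell, 1 without the term, 3 in the smaller experiment, 3 thinned), 3 for the difference of effects (6 per cell, 1 without the term, 1 in the smaller experiment) and 1 for untreated 72 h minus 0 h (2 with DESeq2, 2 with no filter on cells, 0 in the smaller experiment). By phase at 48 h they numbered 2 in G0-G1 (1 thinned), 4 in G2-M (1 thinned) and 2 in S (1 with DESeq2). Apart from these settings and their scalings the cause was not tested.

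Over all genes, calls went from 4855 at 48 h to 9584 per cell, 2149 in the smaller experiment and 2680 without the term. At 72 h they went from 889 to 469 thinned, 22 in the smaller experiment and 217 without the term. For treated 72 h minus 48 h they went from 5025 to 9471 per cell, 3003 thinned, 2661 in the smaller experiment and 3104 without the term. For the difference of effects they went from 3223 to 8648, 1836, 768 and 1222 in the same settings, and 1927 with B1-8 cells. For untreated 48 h minus 0 h they went from 14 to 25 with DESeq2, 8 per cell, 5 with B1-8 cells, 0 in the smaller experiment and 5 without the term, and for untreated 72 h minus 0 h from 406 to 143 per cell, 236 thinned, 3 in the smaller experiment, 77 without the term and 256 with the groups compared alone. Thinning took the phase counts from 822, 1016 and 1608 to 209, 634 and 614 (G0-G1, S and G2-M).

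The mouse is the block in C minus N because each mouse gave cells to both pools. Without the replicate block 7 members were called in place of 8, with Cxcr5 at -0.91 and Gpr183 at -1.32, and leaving out each mouse gave 7 to 8. Ccr7 could not be tested without mouse M5. Time-course mice were not paired. Depth limits Ccr7 and S1pr1 most.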
